A study of Mus musculus with 10 samples.

Results

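Fatty acid elongases are the 7 genes *Elovl1* to *Elovl7*, chosen by symbol and not by any measured value, from the 27267 genes listed for interscapular brown adipose tissue (iBAT) of the mouse. All 7 were listed. With a minimum mean of 10 normalized counts over the 10 libraries, 13714 genes were tested, and 5 of the 7 elongases were among them. *Elovl2* and *Elovl4* were below that minimum and are described by their reads. The tissue came from C57BL/6 mice labelled male, 4 weeks of age and on a chow diet, with 5 libraries of wild type and 5 of global *Mgp* knock-out (*Mgp*-KO). *Mgp* encodes matrix Gla protein, an inhibitor of bone morphogenetic proteins. The deletion was present in the whole body and not in brown adipocytes alone. The study asked how loss of *Mgp* changes gene expression in this tissue.

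Elongases lengthen fatty acids in the endoplasmic reticulum. Each turn of the cycle joins an acyl-CoA to malonyl-CoA, and the product is then reduced, dehydrated and reduced again by partner enzymes shared by all elongases. The elongase carries out the first, rate-limiting condensation and sets which chains are extended. ELOVL6 extends palmitate, the product of fatty acid synthase, to stearate, and ELOVL5 extends polyunsaturated chains. ELOVL3 makes saturated and monounsaturated very long chains and is known in brown fat for its induction by cold. ELOVL1 makes saturated very long chains and ELOVL7 acts on long saturated chains. ELOVL2 works on polyunsaturated chains, best known in liver and testis, and ELOVL4 makes the extremely long chains of retina, skin and brain.

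Values are normalized counts, the reads on a gene divided by the size factor of the library. Replicates 1 to 3 of both groups had between 19616366 and 22252260 reads on genes per library, and replicates 4 and 5 between 9253793 and 13281873. Reads of mitochondrial rRNA made up 0.771% to 1.72% of the first set and 6.50% to 16.7% of the second. A library with 0 reads of a gene lies under a floor of 3 reads, which is 2.15 to 5.19 normalized counts, and such floors cover counting error only. The targeted gene was measured first. *Mgp* was at 576, 489, 466, 1146 and 839 normalized counts in wild type 1 to 5. In the libraries labelled *Mgp*-KO it was at 0, 0.765 and 0.821 in replicates 1 to 3, but at 500 and 331 in replicates 4 and 5. The reads in labelled *Mgp*-KO 4 and 5 run counter to their label. Wild type 2 had 5094 normalized counts of *Xist*, which marks female cells, and 4 genes of the Y chromosome added up to 3.74 in it, against its male label. All labels were kept, and results are given with and without these 3 libraries. The brown adipocyte label of the tissue was checked on *Ucp1*, the uncoupling protein of brown fat, which had 38421 to 116019 normalized counts in wild type and 2201 to 15641 in the libraries labelled *Mgp*-KO.

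To compare abundance between the elongases, normalized counts were divided by the length of the merged exons of each gene. In wild type, *Elovl6* had the highest level with 1484 ± 867 normalized counts per kb (SD, n = 5), followed by *Elovl5* with 667 ± 258 and *Elovl3* with 348 ± 445. *Elovl1* came next with 73.8 ± 12.6 per kb. *Elovl7*, *Elovl4* and *Elovl2* were far below, at 2.54 ± 1.20, 2.38 ± 1.19 and 0.559 ± 0.497 per kb. These first 4 members accounted for nearly all elongase transcripts of wild-type iBAT. *Elovl6* was above *Elovl5* in 5 of 5 wild-type libraries and *Elovl5* above *Elovl3* in 5 of 5, although the ranges of both pairs overlapped between libraries. *Elovl3* was above *Elovl1* in 2 of 5 only, namely in replicates 4 and 5. *Elovl7* and *Elovl4* did not differ beyond their spread, with *Elovl7* higher in 3 of 5.

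In the libraries labelled *Mgp*-KO the order began in the same way, with *Elovl6* at 606 ± 367 and *Elovl5* at 322 ± 128 normalized counts per kb (SD, n = 5). *Elovl1* was the third there with 91.1 ± 29.9, and *Elovl3* the fourth with 19.8 ± 28.7. *Elovl1* was above *Elovl3* in 5 of 5 of these libraries and their ranges did not overlap. In labelled *Mgp*-KO 4 and 5 *Elovl3* was the fourth with 42.7 ± 39.3 (n = 2), but in labelled *Mgp*-KO 1 to 3 it was the fifth with 4.50 ± 1.58 (n = 3), next to *Elovl7* with 5.15 ± 1.57 and overlapping with it. In wild type 1 to 3 *Elovl1* was also above *Elovl3* in 3 of 3 libraries, at 76.8 ± 4.99 against 45.8 ± 28.0 per kb, with overlapping ranges. In wild type 4 and 5 *Elovl3* reached 802 ± 325 per kb (n = 2), close to the 851 ± 353 of *Elovl5*. The place of *Elovl3* in the order thus depended on both group and replicate set. Without wild type 2 the order of the first 4 members in wild type was the same, while *Elovl4*, at 2.67 ± 1.15 per kb (n = 4), came before *Elovl7* at 2.19 ± 1.06.

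**Figure D1:**
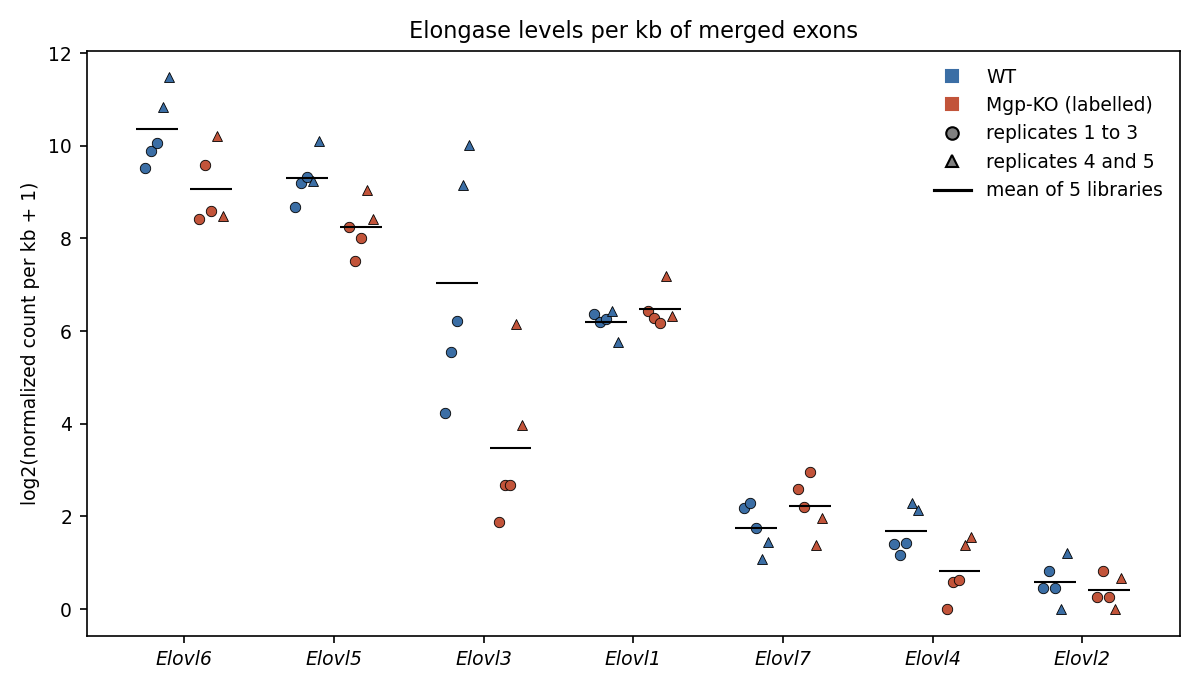
Level of each elongase in each iBAT library, as log2(normalized count per kb of merged exons + 1), with wild type in blue, labelled *Mgp*-KO in red, replicates 1 to 3 as circles, replicates 4 and 5 as triangles, and lines at the mean of the 5 log2 values. *Elovl6* and *Elovl5* lie highest in both groups, *Elovl3* is spread over the widest range, and *Elovl7*, *Elovl4* and *Elovl2* lie near the bottom.

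The make-up of the elongase transcripts was described by each member's share of the summed level per kb. *Elovl6* held 57.8% ± 1.02 of the sum in wild type (SD, n = 5), with only 56.5% to 59.0% between libraries, although the sum itself ranged from 1248 to 5042 normalized counts per kb. *Elovl5* held 28.8% ± 7.49, *Elovl3* 9.43% ± 9.26 and *Elovl1* 3.77% ± 2.04. In wild type, *Elovl3* held 1.42%, 2.77% and 3.95% in replicates 1 to 3 but 18.5% and 20.5% in replicates 4 and 5, so its share was higher in the second set, where *Elovl5* held 19.5% and 21.8% in place of 33.0% to 35.2%. In the libraries labelled *Mgp*-KO the sum was 724 to 1923 per kb. The share of *Elovl6* there was 55.9% ± 12.2 and varied from 44.9% to 74.1%. *Elovl5* held 32.9% ± 10.5, *Elovl1* 9.22% ± 1.79 and *Elovl3* 1.43%, with 0.362% to 3.67% between libraries. The share of *Elovl1* was 7.37% to 11.6% in these libraries and 1.06% to 6.58% in wild type, without overlap. The shares are descriptions with no test, since a share of one member depends on all others.

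**Figure D2:**
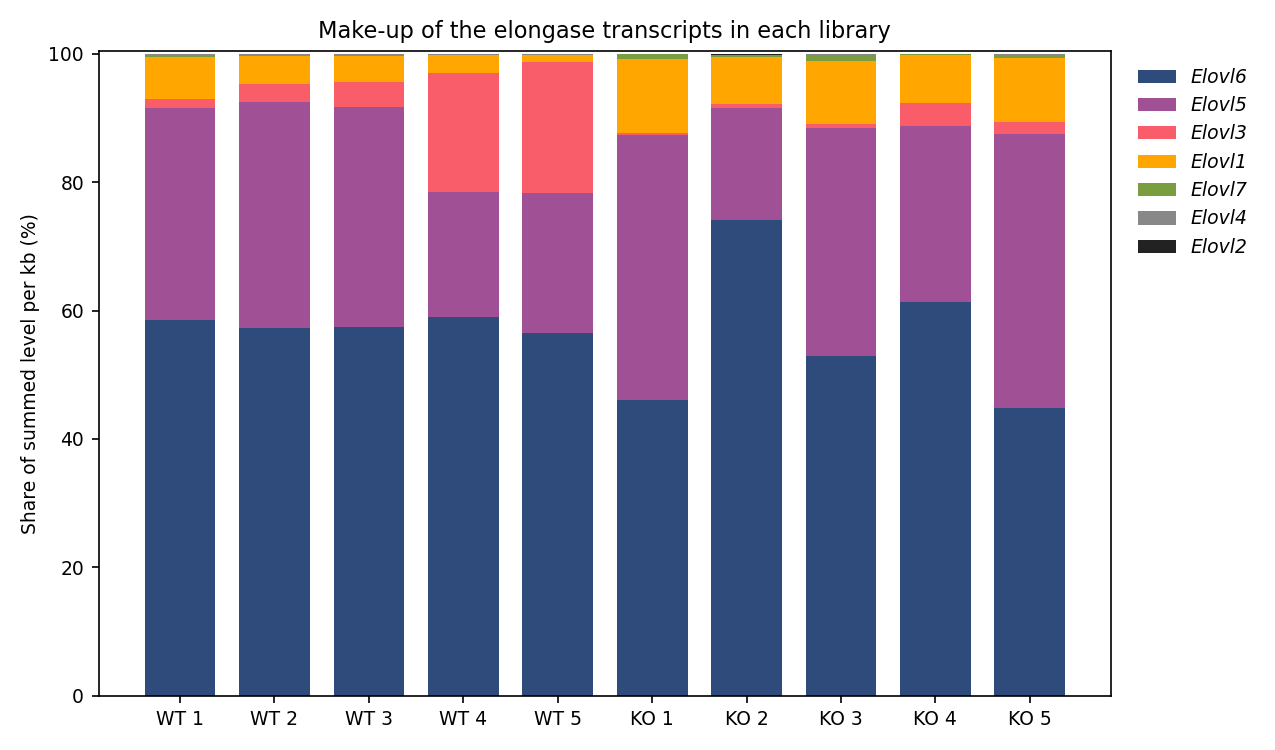
Share of each elongase in the summed level per kb, in percent, for wild type 1 to 5 and the libraries labelled *Mgp*-KO 1 to 5 (KO 1 to KO 5). The *Elovl6* block is nearly constant in wild type, at 56.5% to 59.0%, and the *Elovl3* block is widest in wild type 4 and 5, at 18.5% and 20.5%.

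Coordinates are those of the GENCODE vM21 annotation of GRCm38. *Elovl6* lies on chromosome 3 from 129532355 to 129638495 on the plus strand, and its merged exons add up to 6.43 kb. *Elovl5* lies on chromosome 9 from 77917364 to 77984519 (plus strand, 3.52 kb of exons), and *Elovl4* on the same chromosome from 83778692 to 83806277 on the minus strand. *Elovl3* is a compact gene on chromosome 19 from 46131897 to 46135694 (plus strand, 1.98 kb of exons). *Elovl1* lies on chromosome 4 from 118428093 to 118432953 on the plus strand. *Elovl7* lies on chromosome 13 from 108214404 to 108285683 on the plus strand, and *Elovl2* on that chromosome from 41182381 to 41220405 on the minus strand. Exons of 3 members share bases with a gene on the opposite strand. *Elovl1* shares 53 bases with *Cdc20*, *Elovl3* shares 10 with *Pitx3* and *Elovl6* shares 34 with *Gm35986*. The means of these neighbours over the 10 libraries were 21.1, 4.86 and 29.2 normalized counts, and whether the counting used the strand is not given in the sources used here.

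Promoter windows of 250 bases before to 50 after the start site are shown for *Elovl5* and *Elovl6*, which were both lower in every labelled *Mgp*-KO library than in the wild-type library of the same number, and for *Elovl1*, which was not. They come from RefSeq (GRCm38.p6), in which 6 of the 7 elongases were matched with 8 windows. *Elovl3* was the member without a window, so its promoter was not searched. The windows lie at chr9:77917115-77917414 for *Elovl5*, chr3:129532136-129532435 for *Elovl6* and chr4:118427843-118428142 for *Elovl1*, all on the plus strand. Capitals mark the bases of any motif found on either strand.
Elovl5: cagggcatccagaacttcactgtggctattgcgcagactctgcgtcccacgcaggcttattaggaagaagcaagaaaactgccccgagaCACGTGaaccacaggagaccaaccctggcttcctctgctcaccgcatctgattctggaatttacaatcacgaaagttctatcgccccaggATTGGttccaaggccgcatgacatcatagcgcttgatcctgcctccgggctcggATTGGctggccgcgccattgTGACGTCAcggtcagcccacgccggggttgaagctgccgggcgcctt
Elovl6: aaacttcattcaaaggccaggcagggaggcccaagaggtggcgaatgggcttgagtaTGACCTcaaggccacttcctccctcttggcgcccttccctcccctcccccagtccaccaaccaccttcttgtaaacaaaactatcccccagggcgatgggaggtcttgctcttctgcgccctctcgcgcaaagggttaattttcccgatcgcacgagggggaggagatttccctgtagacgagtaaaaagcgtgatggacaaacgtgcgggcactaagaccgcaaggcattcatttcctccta
Elovl1: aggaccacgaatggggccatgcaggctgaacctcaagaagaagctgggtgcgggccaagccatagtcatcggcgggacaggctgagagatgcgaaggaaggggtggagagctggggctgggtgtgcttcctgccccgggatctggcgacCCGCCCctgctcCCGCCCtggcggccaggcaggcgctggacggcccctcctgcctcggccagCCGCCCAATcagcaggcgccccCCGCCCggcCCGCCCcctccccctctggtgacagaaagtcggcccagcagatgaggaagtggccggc
The motifs searched on both strands were the sterol regulatory element TCACNCCAC, the CCAAT box by the letters CCAAT, the GC box GGGCGG, the E-box CACGTG, the cyclic AMP response element TGACGTCA and the nuclear receptor motif TGACCT. The *Elovl5* window held 2 matches of the CCAAT box on the minus strand, 71 and 17 bases before the start site, and 1 match each of the E-box, 161 bases before it, and of the cyclic AMP response element, which begins 3 bases after it. In the *Elovl6* window the capitals are 1 nuclear receptor motif, 193 bases before the start. The *Elovl1* window printed here held 1 CCAAT box and 5 GC boxes, of which 1 overlaps the CCAAT box. A second *Elovl1* window, at chr4:118429451-118429750, is not printed and held 2 GC boxes and 1 nuclear receptor motif. Of all 32851 windows of the same length, 1.79% held the cyclic AMP response element, 7.15% the E-box, 16.3% the nuclear receptor motif, 35.7% the GC box and 37.4% the CCAAT box. The sterol regulatory element was in 1.24% of all windows and these letters were in none of the 8 elongase windows. A match is a description of the letters and not of binding.

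Wild type was then compared with the libraries labelled *Mgp*-KO. Among the 5 tested elongases, *Elovl3*, *Elovl5* and *Elovl6* had the larger differences, and all 3 were lower in the labelled *Mgp*-KO library in 5 of 5 libraries of the same number, whereas *Elovl1* and *Elovl7* differed little for their spread. *Elovl4*, which was below the minimum mean, was also lower in 5 of 5. In bulk tissue, fewer cells of a type and less RNA per cell cannot be told apart. The labels do not name littermates, and libraries of the same number were not taken as pairs, as described at the end. Counts over same-numbered libraries are therefore descriptions, and their share over all tested genes is not given here. The p-values measure the spread between these libraries.

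*Elovl6*, the elongase of palmitate, was at 4701, 6091, 6891, 11711 and 18332 normalized counts in wild type 1 to 5. The libraries labelled *Mgp*-KO 1 to 5 had 2183, 4939, 2467, 7592 and 2302. The means were 9545 ± 5576 and 3897 ± 2359 (SD, n = 5), a ratio of 2.45. Wild type 4 and 5 were the highest of their group, and labelled *Mgp*-KO 2 and 4 the highest of theirs, so that the groups overlapped. The difference by limma was -1.30 on the log2(normalized count + 1) scale with a standard error of 0.44 (adjusted p = 0.301). Every log2 difference between the genotypes has this scale, unless another tool or setting is named, and subtracts wild type from labelled *Mgp*-KO. For genes with few counts, a difference on this scale comes out too small because of the added 1.

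*Elovl5*, the elongase of polyunsaturated chains, was at 1448, 2052, 2258, 2118 and 3876 normalized counts in wild type. Under the *Mgp*-KO label it was at 1075, 638, 904, 1849 and 1199. Means were 2351 ± 907 and 1133 ± 452 (SD, n = 5), a ratio of 2.07. The groups overlapped only through labelled *Mgp*-KO 4, which stood above wild type 1. Its log2 difference was -1.06 with a standard error of 0.31 (limma, adjusted p = 0.225).

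*Elovl3*, the cold-induced elongase of brown fat, was at 35.1, 90.6 and 146 normalized counts in wild type 1 to 3, but at 1130 and 2037 in wild type 4 and 5. In the libraries labelled *Mgp*-KO it was at 5.28, 10.7 and 10.7 in replicates 1 to 3 and at 139 and 29.3 in replicates 4 and 5. Both groups were higher in replicates 4 and 5, and labelled *Mgp*-KO 4 reached into the range of wild type 1 to 3. The ratio of the means, 688 ± 879 against 39.0 ± 56.7 (SD, n = 5), was 17.6, and between libraries of the same number wild type was 6.64 to 69.5 times higher. The log2 difference was -3.64 with a standard error of 1.13 (limma, adjusted p = 0.254), or 12.5-fold on that scale. It was 7.45-fold without wild type 5, 20.4-fold without wild type 1 and 20.2-fold without labelled *Mgp*-KO 4.

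*Elovl1*, an elongase of very long saturated chains, was at 224, 197, 207, 233 and 145 normalized counts in wild type, beside 233, 208, 194, 392 and 215 under the *Mgp*-KO label. Apart from labelled *Mgp*-KO 4 the values of both groups lay in one range. The log2 difference was 0.27 with a standard error of 0.23 (limma, adjusted p = 0.732). *Elovl7* was at 14.3, 15.7, 9.56, 4.40 and 6.92 in wild type, beside 20.3, 14.5, 27.1, 6.48 and 11.7 under the *Mgp*-KO label, from 3 to 33 reads per library. Values were lower in replicates 4 and 5 of both groups, and the groups overlapped. Its log2 difference was 0.59 with a standard error of 0.49 (limma, adjusted p = 0.725).

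*Elovl4*, the elongase of extremely long chains, had 7, 5, 7, 8 and 6 reads in wild type, against 0, 2, 2, 3 and 5 where *Mgp*-KO was the label, in all 33 against 12. As normalized counts these were 7.20 ± 3.59 and 2.78 ± 2.47 (SD, n = 5), with overlapping groups and with labelled *Mgp*-KO 1 to 3 under the floor of 3 reads. *Elovl2* had 2, 4, 2, 0 and 3 reads in wild type, against 1, 4, 1, 0 and 2 where *Mgp*-KO was the label, in all 11 against 8. A difference in *Elovl2* was not detectable at this depth.

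**Figure D3:**
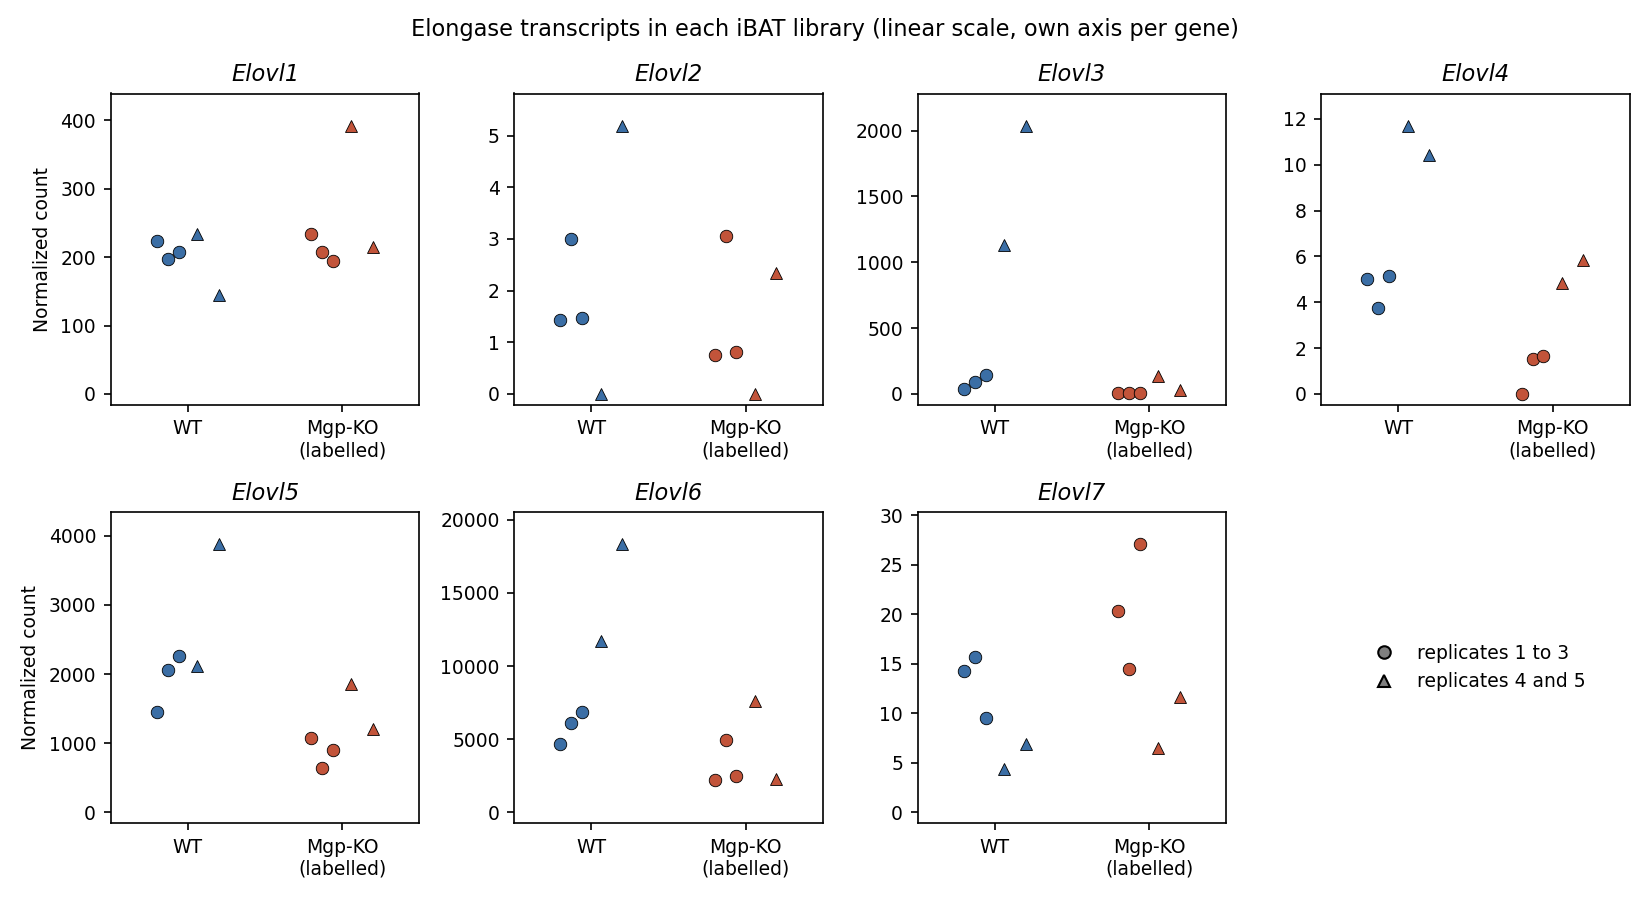
Normalized counts of the 7 elongases in each library on linear axes with a separate scale per gene, wild type in blue and labelled *Mgp*-KO in red, replicates 1 to 3 as circles and replicates 4 and 5 as triangles. *Elovl3* reaches 1130 and 2037 in wild type 4 and 5 and at most 139 in the libraries labelled *Mgp*-KO, while the 2 groups of *Elovl1* lie at the same height but for labelled *Mgp*-KO 4 at 392.

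Over the 10 libraries limma called 0 of the 5 tested elongases, where 0.0656% of all tested genes were called (9 of 13714). An unadjusted p under 0.05 was found for 3 of the 5, at 0.00507 for *Elovl5*, 0.00737 for *Elovl3* and 0.0122 for *Elovl6*, as for 1421 of all 13714 tested genes. edgeR on the recovered reads also called 0. DESeq2 on these reads called 1, *Elovl3*, with a log2 difference of -4.15 (standard error 1.18, adjusted p = 0.0271), where it called 2.26% of all genes. Groups overlapped for each of the 7 elongases, and 3.50% of all tested genes had groups that did not. In 2-sided exact permutation tests of the mean log2 value, not adjusted over the 7, p was 0.0159 for *Elovl5*, 0.0317 for *Elovl3*, 0.0556 for *Elovl6* and 0.0635 for *Elovl4*. It was 0.222 for *Elovl7*, 0.333 for *Elovl1* and 0.540 for *Elovl2*, and the smallest value that this exact test of 5 against 5 can give is 0.00794.

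Part of the spread lay between the replicate sets. With the genotype in the model, *Elovl3* was higher in replicates 4 and 5 than in 1 to 3 by 3.53 on the log2 scale (standard error 0.52, limma, adjusted p = 5.46e-04). *Elovl5* was higher by 0.70 (standard error 0.23, adjusted p = 0.0314) and *Elovl7* lower, with a difference of -1.10 (standard error 0.35, adjusted p = 0.0302). These 3 of 5 passed the test, beside 38.2% of all tested genes. *Elovl6* had a set difference of 0.91 (adjusted p = 0.0644) and *Elovl1* one of 0.14 (adjusted p = 0.644). What the sets stand for is not given in the labels, and depth and mitochondrial rRNA differed between them as given above.

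With a term for the set in limma, the genotype differences were the same and their errors smaller. In the libraries labelled *Mgp*-KO, *Elovl3* fell by 3.64 on the log2 scale (standard error 0.51, adjusted p = 0.0104), which is 12.5-fold on the scale with the pseudocount. *Elovl5* fell by 1.06 (standard error 0.22, adjusted p = 0.0346), or 2.09-fold. *Elovl6* had a difference of -1.30 (standard error 0.35, adjusted p = 0.0780). The adjusted p was 0.503 for *Elovl1* and 0.371 for *Elovl7*. Thus 2 of 5 elongases passed, beside 2.36% of all tested genes. With each library left out in turn under the set term, *Elovl3* passed in 10 of 10 fits, with adjusted p from 0.00713 to 0.0400. *Elovl5* passed only without wild type 4 or without labelled *Mgp*-KO 4 and lost its call without any other library, with adjusted p up to 0.109. *Elovl6* passed without labelled *Mgp*-KO 2 (adjusted p = 0.0466) or 4 (adjusted p = 0.0404). In these fits 56 to 678 of all 13714 tested genes were called.

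Within replicates 1 to 3, where *Mgp* followed its labels, *Elovl3* and *Elovl5* fell. *Elovl3* was at 90.4 ± 55.3 normalized counts in wild type and 8.89 ± 3.13 in the libraries labelled *Mgp*-KO (SD, n = 3), with a log2 difference of -3.05 (standard error 0.53, limma, adjusted p = 0.0313). *Elovl5* was at 1920 ± 421 and 872 ± 220, with a difference of -1.14 (standard error 0.24, limma, adjusted p = 0.0458). *Elovl6*, at 5894 ± 1108 and 3197 ± 1515, had a difference of -0.96 (standard error 0.31, limma, adjusted p = 0.134, and 0.0389 by DESeq2), and labelled *Mgp*-KO 2 at 4939 stood above wild type 1 at 4701. *Elovl1* was at 209 ± 13.6 and 212 ± 19.8, a difference of 0.01 with a standard error of 0.14, the smallest among the tested elongases in this set. *Elovl7* had a difference of 0.60 (standard error 0.34, adjusted p = 0.348). *Elovl4* had 19 reads in wild type and 4 in the libraries labelled *Mgp*-KO, each of the latter under the floor of 3 reads.

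Here 2 of 5 tested elongases passed, beside 3.54% of all tested genes. The groups did not overlap for these 2 and for *Elovl4*, and 30.6% of all tested genes had such groups. Both calls were lost without the mean-variance trend in limma, with adjusted p of 0.0518 for *Elovl3* and 0.0839 for *Elovl5*, and with no filter on low values, with 0.134 and 0.175. Exact permutation tests of 3 against 3 cannot give less than 0.100. Without wild type 2, the library with female *Xist* reads, the difference was -2.94 for *Elovl3* (adjusted p = 0.144) and -1.08 for *Elovl5* (adjusted p = 0.188), and 0 of 5 passed, with 26 of all genes called in place of 486. Both calls were also lost without wild type 3 or without labelled *Mgp*-KO 1 or 3. Without wild type 1 only that of *Elovl5* was lost, and without labelled *Mgp*-KO 2 *Elovl6* passed as well, with a difference of -1.33 (adjusted p = 0.00817).

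Within replicates 4 and 5 limma called 0% of all tested genes and none of the elongases, 2 of which had an unadjusted p under 0.05, as had 855 of all 13714 tested genes. *Elovl3* was at 1583 ± 641 and 84.3 ± 77.7 normalized counts (SD, n = 2), with a log2 difference of -4.54 (standard error 0.72). *Elovl6* was at 15022 ± 4682 and 4947 ± 3740, a difference of -1.81 (standard error 0.64), and *Elovl5* at 2997 ± 1243 and 1524 ± 459, a difference of -0.94 (standard error 0.43). The adjusted p was 0.679 for each of the 3. Single libraries moved these values. *Elovl3* was 23.3-fold lower with all 4 libraries, 50.1-fold without labelled *Mgp*-KO 4 and 10.8-fold without labelled *Mgp*-KO 5, and *Elovl6* was 3.50-fold, 6.36-fold and 1.93-fold lower. DESeq2 called *Elovl3* alone among the elongases there (adjusted p = 2.10e-08), with 50 of 13617 genes called. Groups did not overlap for these 3 and for *Elovl4*, where 41.6% of all tested genes had such groups. In this set the libraries labelled *Mgp*-KO contained *Mgp* reads.

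Whether the genotype difference itself differed between the sets was tested by an interaction term in limma. None of the 5 tested elongases passed, and none had an unadjusted p under 0.05, where 0.00729% of all tested genes passed. The difference of differences was -1.49 for *Elovl3* (standard error 0.99, adjusted p = 0.561) and -0.85 for *Elovl6* (standard error 0.70, adjusted p = 0.631). It was 0.64 for *Elovl1* (standard error 0.40), 0.20 for *Elovl5* (standard error 0.47) and -0.02 for *Elovl7* (standard error 0.72).

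Leaving out the libraries labelled *Mgp*-KO 4 and 5 gave a difference from the 5 wild-type libraries of -1.39 for *Elovl5* (standard error 0.30, limma, adjusted p = 0.0493) and of -4.76 for *Elovl3* (standard error 1.17, adjusted p = 0.0731). It was -1.50 for *Elovl6* (adjusted p = 0.122), 0.09 for *Elovl1* and 1.03 for *Elovl7* (adjusted p = 0.281). This is 1 of 5 called, beside 1.95% of all tested genes. When wild type 2 was also left out, 0 of 5 passed, with -1.42 for *Elovl5* (adjusted p = 0.0933) and -5.13 for *Elovl3* (adjusted p = 0.0982). With the set term and without labelled *Mgp*-KO 4 and 5, *Elovl3* passed with -3.05 (adjusted p = 0.0267) and *Elovl5* did not (adjusted p = 0.0740), where 265 of all tested genes were called.

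**Figure D4:**
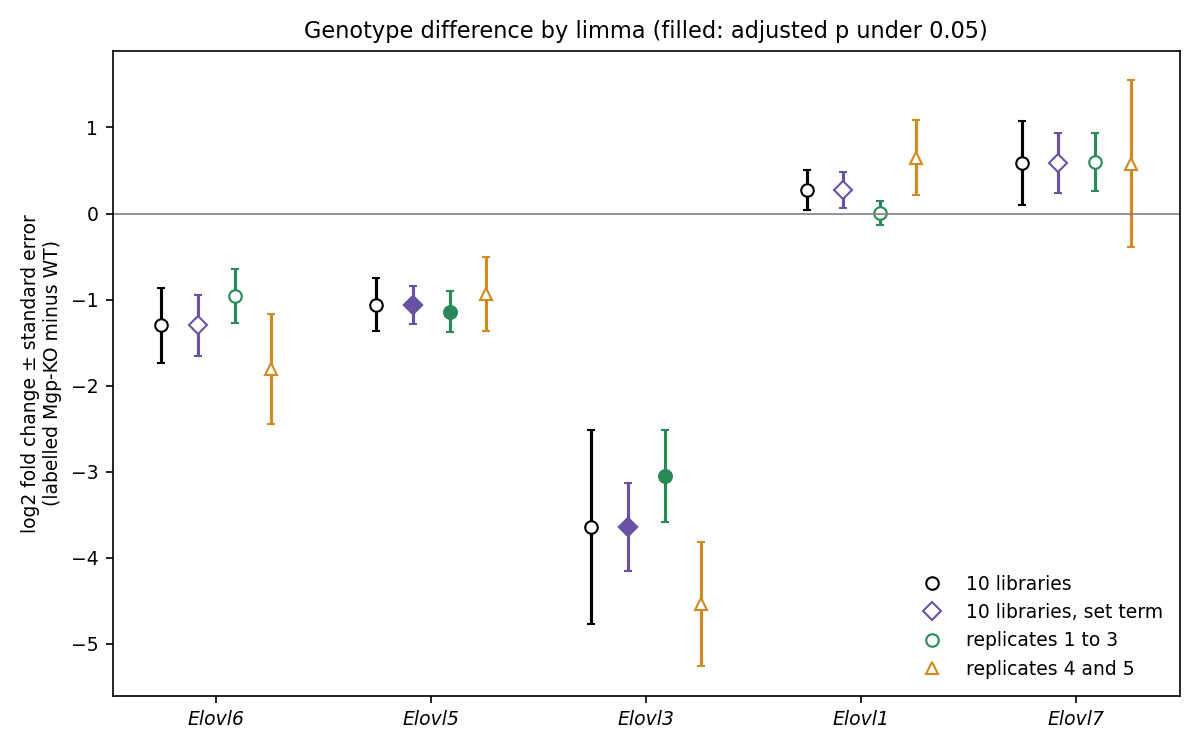
Genotype difference of the 5 tested elongases in 4 limma fits, as log2 fold change of labelled *Mgp*-KO minus wild type with bars of 1 standard error; filled symbols have an adjusted p under 0.05. *Elovl3* and *Elovl5* are filled with the set term and within replicates 1 to 3, and *Elovl6* lies below 0 in all 4 fits without a filled symbol.

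Across the 10 libraries, with the mean of each replicate set subtracted, the log2 values of *Elovl3* and *Elovl6* had a Pearson r of 0.922, those of *Elovl3* and *Elovl5* one of 0.872 and those of *Elovl5* and *Elovl6* one of 0.724. *Elovl7* went the other way, with -0.732 to *Elovl3* and -0.785 to *Elovl6*. *Elovl1* was less alike to the others, between -0.398 and -0.121. These are descriptions over 10 libraries, which share the genotype difference, the tissue and the normalization. The 3 genes most alike to *Elovl3* by the same measure were *Ddhd2*, a phospholipase, *Garnl3* and the kinase gene *Pim1*, with r of 0.980, 0.978 and 0.971. For *Elovl5* they were *Rims4*, *Gga2* and *Lpcat3*, which loads polyunsaturated chains onto phospholipids, with 0.983, 0.981 and 0.978. *Elovl6* was most like *Ift172* (0.967), *Tmem17* (0.962) and *Ccdc122* (0.954), but with *Ift172* the r without subtraction of the set means was -0.00924. Without this subtraction r was also low for *Elovl7* with *Lrrc75a*, at 0.0604, and it was 0.550 for *Elovl3* with *Pim1* and 0.625 for *Elovl5* with *Lpcat3*. *Elovl1* was most like *Emp2* (0.987), the water channel gene *Aqp1* (0.984) and the adenosine receptor gene *Adora2a* (0.979). For *Elovl7* the genes were *Lrrc75a*, *Cep68* and *Stard13*, with 0.921, 0.917 and 0.913.

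The partners of the elongation cycle were *Hsd17b12*, the first reductase, *Hacd1* to *Hacd4*, the dehydratases, and *Tecr*, the second reductase, with its relative *Tecrl*. Of 7 listed, 6 were tested and 0 passed over the 10 libraries by limma. Their median log2 difference was -0.42, beside 0.03 over all tested genes. With the set term 2 of 6 passed, both lower, beside 2.36% of all tested genes. *Hsd17b12* was at 4589 ± 2076 normalized counts in wild type and 2103 ± 635 in the libraries labelled *Mgp*-KO (SD, n = 5), with a difference of -1.06 (standard error 0.24, adjusted p = 0.0453). *Hacd2* was at 984 ± 545 and 469 ± 53.3, with -0.91 (standard error 0.21, adjusted p = 0.0487). *Tecr* was at 2720 ± 877 and 1924 ± 836 and its difference of -0.60 did not pass (adjusted p = 0.259 with the set term). *Hacd1* had -0.17, *Hacd3* -0.24 and *Hacd4* 0.32. Within replicates 1 to 3, *Hsd17b12* alone fell, by 0.71 on the log2 scale (standard error 0.14, adjusted p = 0.0391). *Tecrl* was at 0 in all wild-type libraries and at most at 6.88 in the libraries labelled *Mgp*-KO.

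**Figure D5:**
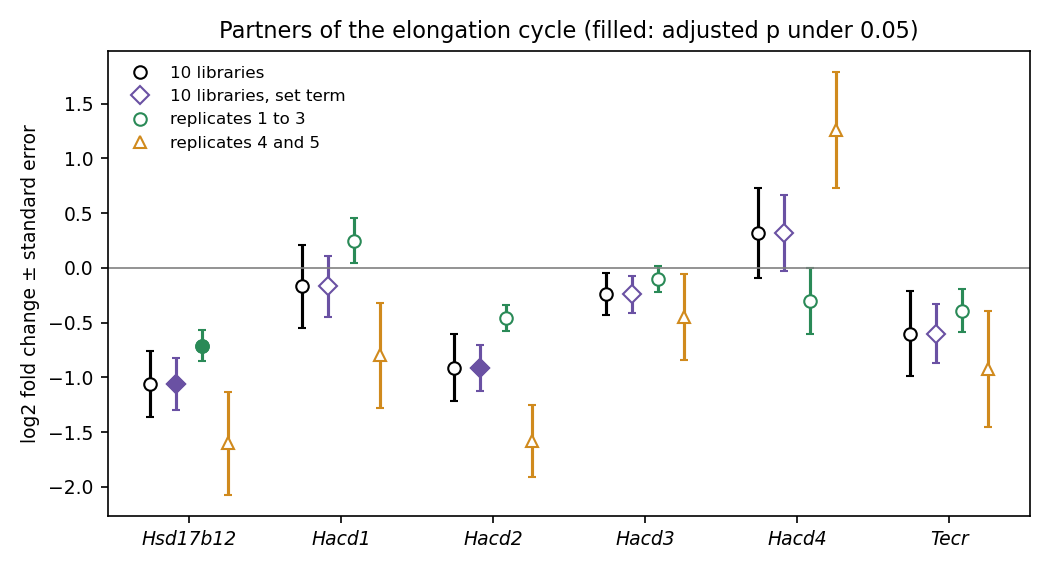
Genotype difference of the 6 tested partners of the elongation cycle in 4 limma fits, as log2 fold change of labelled *Mgp*-KO minus wild type with bars of 1 standard error, filled where the adjusted p is under 0.05. *Hsd17b12* is filled with the set term and within replicates 1 to 3, *Hacd2* with the set term. *Hacd1* and *Hacd4* each lie on different sides of 0 in the 2 replicate sets.

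Enzymes that supply malonyl-CoA and palmitate to the elongases were lower in part. Of 6 tested, 2 passed the test as lower over the 10 libraries, *Acaca* and *Fasn*, and 4 with the set term, where *Acly* and *Me1* passed as well. For this and the lists that follow, the shares over all tested genes were 0.0656% over the 10 libraries, 2.36% with the set term and 3.54% within replicates 1 to 3. The median log2 difference was -2.31, beside 0.03 over all tested genes. *Fasn*, fatty acid synthase, fell by 3.86 on the log2 scale (standard error 0.48, limma, adjusted p = 0.0255), whereas *Acacb*, the carboxylase at the mitochondria, had -0.49 (adjusted p = 0.777). Of 6 tested desaturases, which place double bonds in the chains, 1 was lower over the 10 libraries. This was *Scd1*, which desaturates the stearate made by ELOVL6, with -4.36 (standard error 0.61, adjusted p = 0.0322), while *Scd2* had -1.24 (adjusted p = 0.387). The median of the desaturases was -0.14. The calls of *Acaca*, *Fasn* and *Scd1* over the 10 libraries were lost without wild type 2, 3 or 5 or without labelled *Mgp*-KO 1 or 3, since 0 of all genes were then called. The list of users of very long chains, with ceramide synthases and peroxisomal transporters among them, had a median of 0.03, and 0 of 8 passed over the 10 libraries. With the set term *Abcd3*, a peroxisomal transporter, fell by 0.93 (adjusted p = 0.0369).

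Of 11 tested regulators of elongase genes 0 passed over the 10 libraries by limma, and their median difference was -0.22. *Mlxipl*, the carbohydrate response factor ChREBP, had -0.22 (adjusted p = 0.811) and *Pparg*, the adipocyte nuclear receptor, 0.10 (adjusted p = 0.922). With the set term 1 was lower, *Nr1h3*, the liver X receptor alpha, with -0.57 (standard error 0.13, adjusted p = 0.0431). Within replicates 1 to 3 it was *Srebf1*, the sterol response factor of lipogenic genes, with -1.01 (standard error 0.19, adjusted p = 0.0361), which with the set term had -0.97 (adjusted p = 0.110). *Nr1h3*, *Srebf1* and the genes of the supply list other than *Fasn* and *Acacb* were named after their values were seen.

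Markers of cell types were read beside *Elovl3*, *Elovl5* and *Elovl6*. The sum of 8 brown adipocyte markers in wild type was 79537 to 94348 normalized counts in replicates 1 to 3 but 127088 to 171166 in replicates 4 and 5. For the labelled *Mgp*-KO sets it was 28969 to 47518 and 42378 to 70041, lower than wild type in both sets. Of the 8, 0 passed over the 10 libraries and 2 with the set term, *Ucp1* with -2.70 (adjusted p = 0.0127) and *Dio2*, the deiodinase of brown fat, with -3.35 (adjusted p = 0.0228). The list's median was -0.40, and the other 6 did not pass with the set term, from -0.61 for *Prdm16* and -0.44 for *Cidea* through -0.36 for *Cox7a1*, -0.16 for *Ppargc1a* and -0.03 for *Ebf2* to 0.51 for *Zic1*. *Ucp1*, at 60876 ± 32192 and 10201 ± 5064 normalized counts (SD, n = 5), made up most of the difference in the sum. The sum of 6 general adipocyte markers was 175214 to 198920 in replicates 1 to 3 of wild type, beside 195087 to 220792 in those labelled *Mgp*-KO, and 392524 to 536685 beside 410942 to 414670 in replicates 4 and 5. It was carried by *Fabp4* and *Lpl*, with log2 differences of -0.13 and 0.44, while *Plin1* had -1.29 (adjusted p = 0.190 with the set term), and 0 of 6 passed in any of the 4 fits. Skin glands also express *Elovl3*. Of 6 skin and sebaceous markers 5 were listed and 1 was tested, and their sum in wild type was 17.6 to 27.0 in replicates 1 to 3 but 52.8 to 111 in replicates 4 and 5, higher where *Elovl3* was higher. It was 14.8 to 23.7 and 17.8 to 62.1 in the libraries labelled *Mgp*-KO. *Krt10*, a keratin of the upper layers and the tested member, made up most of this sum, at 16.2 to 91.7 in wild type and 10.7 to 46.9 under the *Mgp*-KO label, and it was higher in replicates 4 and 5 by 1.19 on the log2 scale (limma, adjusted p = 0.0413). *Krt5* and *Krt14*, the keratins of the basal layer, were at 0 to 9.38 and 0 to 3.52. Of the gland members, *Mc5r* was at 1.47 to 12.1 in wild type and 1.64 to 12.2 under the *Mgp*-KO label. *Dgat2l6* was at 0 to 2.93 and 0 to 0.765. Skeletal muscle markers summed to 35.3 to 29312 without order by group, and 0 of 6 passed. Endothelial markers, 0 of 6 called, had a median difference of 0.38, myeloid markers, 0 of 6, one of 0.22 and adipose progenitor markers, 0 of 6, one of -0.16. Of 5 Schwann cell markers 1 was lower with the set term, *Pmp22* with -0.92 (adjusted p = 0.0342). The part of these cell types in the elongase differences was not tested.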

How the data were processed

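RNA of iBAT from 10 mice was sequenced as single reads, each 50 bases long. The authors mapped them to the mouse genome (mm10) with STAR, counted reads per gene in STAR and divided by size factors from DESeq2, so the deposited values are a signal per gene, the normalized count. The annotation release and the strand setting are not given in the sources used here. Each value was a whole multiple of the value of 1 read (100% within 0.01 reads, largest deviation 0.00181), which gave back the reads. There were 0 columns without a sample.

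limma 3.58.1 (R 4.3.3, lmFit and eBayes with trend) was run on log2(normalized count + 1) for genes with a mean of at least 10, with Benjamini-Hochberg adjustment over all tested genes and a threshold of 0.05, without a block. Alternatives included edgeR 4.0.16 and DESeq2 1.42.0 on recovered reads. The 3 tools, each without and with the block or set term, were tested on simulated data. Members, lists and tests were chosen with earlier results of these data known. Further alternatives (the libraries left out under the set term, and wild type 2 left out with labelled *Mgp*-KO 4 and 5) were added after seeing the data. Named were all elongases, all cycle partners, the 2 most abundant genes of each discussed list, the 3 genes most alike to each tested elongase, and *Mgp*, *Xist* and Y chromosome genes as checks. Other genes named were chosen after their values were seen. The values of 1 list gene are not reported here. Levels were divided by merged exon length from GENCODE vM21, and promoters came from RefSeq (GRCm38.p6).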

Additional observations from a re-analysis of the deposited data

Results flagged for a closer look

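In a group of 5 libraries, a library is set apart when its gap to the next value, divided by the range of the group, is above 0.71. Of the 14 groups examined (7 elongases in 2 groups), 2 held such a library. The rule was run on linear normalized counts, with the replicate sets pooled. Its chance rate of about 1 group in 20 holds for normal values from a single population, so it cannot be applied to these counts. Both were labelled *Mgp*-KO 4, one of the libraries with *Mgp* reads. For *Elovl1*, at 392 normalized counts against 194 to 233 in the other 4, the gap was 0.802 of the range. For *Elovl3*, at 139 against 5.28 to 29.3, it was 0.821. The log2 values of *Elovl3* in labelled *Mgp*-KO 1 to 5 were 2.65, 3.55, 3.55, 7.13 and 4.92, and the rule was not run on them. This gene was higher in replicates 4 and 5 of both groups.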

How the results depend on the processing

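Over the 10 libraries the differences of *Elovl3*, *Elovl5* and *Elovl6* were below 0, and those of *Elovl1* and *Elovl7* above 0, under every alternative run. The adjusted p of *Elovl3* ranged from 4.25e-17 to 0.522, that of *Elovl5* from 4.49e-04 to 0.461 and that of *Elovl6* from 0.00142 to 0.580. Against 0 elongases called by limma over the 10 libraries, DESeq2 called 1, DESeq2 with the set term 3, edgeR with the set term 2, limma with the set term 2, and limma without labelled *Mgp*-KO 4 and 5 called 1. With a library left out the count was 0 in each of the 10 fits. Over all genes the count of 9 became 374 by DESeq2 (1152 with the set term), 3 by edgeR (341 with the set term), 324 by limma with the set term, 267 without labelled *Mgp*-KO 4 and 5, 97 when wild type 2 was left out too, 34 after quantile normalization, 29 with a pseudocount of 10, 15 with a mean of at least 50 and 1 with no filter. With a library left out it was 0 to 93, being 0 without wild type 2, 3 or 5 or labelled *Mgp*-KO 1 or 3, 34 without wild type 4 and 93 without labelled *Mgp*-KO 4.

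Within replicates 1 to 3, the 2 elongases called became 3 by DESeq2, where *Elovl6* passed as well, 0 with no filter, 0 with no trend, and 0 to 3 with a library left out. The 486 genes called became 1348 by DESeq2, 280 with no trend, 127 with no filter and 26 to 811 with a library left out. The difference of *Elovl1* there, 0.01, turned sign to -0.01 after quantile normalization and -0.04 with equal upper quartiles. With a library left out it ranged from -0.06 (without labelled *Mgp*-KO 1) to 0.07, with -0.03 without wild type 2. Within replicates 4 and 5, DESeq2 called 1 elongase and 50 genes in place of 0. Under the set term, the 2 elongases called became 1 without labelled *Mgp*-KO 4 and 5, and 1 to 3 with a library left out. Over all genes these fits called 265 and 56 to 678, in place of 324. Per kb of the longest transcript, *Elovl1* in wild type was at 111 in place of 73.8. The cause of these changes was not tested.

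The replicate numbers were checked for pairing. Same-numbered libraries had a mean r of 0.389 for deviations from group means, between 0.0559 and 0.527, against 0.416 for other numbers of the same set. With set means removed it was -0.0225, and 2 wild-type libraries correlated best with their own number, so the numbers were not taken as pairs. The paper describes the mice as pairs, and the labels do not say which libraries form a pair. With the replicate block over the 10 libraries, limma called 1 elongase (*Elovl3*) and 270 genes, edgeR 1 and 222, and DESeq2 3 and 921. Of the genes called with the set term in limma, the block lost *Hacd2* (adjusted p = 0.0911) and *Nr1h3* (adjusted p = 0.0857). It kept *Hsd17b12* (adjusted p = 0.0460), and *Srebf1* passed (adjusted p = 0.0278). Within replicates 1 to 3 the replicate block in limma left 1 elongase (*Elovl3*) and 265 genes. At 3 to 33 reads per library for *Elovl7* and 0 to 8 for *Elovl4* and *Elovl2*, depth limits what can be seen.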
